A study of Mus musculus with 8 samples.

Results

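The hepatocyte carriers for bile acids and organic anions were examined as 10 genes, chosen by symbol and grouped by the membrane and direction of transport. They were 3 canalicular exporters (Abcb11, Abcb4 and Abcc2), 2 basolateral efflux pumps (Abcc3 and Abcc4) and 5 uptake carriers (Slc10a1, Slco1a1, Slco1a4, Slco1b2 and Slco2b1). All 10 were found once among the 55487 genes of the count table, and all 10 were among the 13312 genes with enough counts to be tested. The samples were 8 liver libraries from male C57Bl/6J mice about 10 weeks old, an inbred strain with no transgene or deletion named in the labels. Of these, 4 were taken 4 hours after a gavage of water (control) and 4 were taken 4 hours after a gavage of 17 mg potassium sorbate, a food preservative derived from sorbic acid. According to the series title, sorbate is a source of a lysine acylation written by class I histone deacetylases. The design asks which liver transcripts differ between the treatments.

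Hepatocytes take up bile acids and other organic anions from sinusoidal blood through sodium-dependent and sodium-independent carriers, and pump them into bile across the canalicular membrane with ATP-driven exporters. A second set of ATP-driven pumps on the basolateral membrane returns conjugates and bile acids to blood, and is best known for its rise in cholestasis. The genes are classic targets of the nuclear receptors FXR, CAR, PXR and PPARalpha and of the oxidative stress factor NRF2.

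With sorbate, transcripts of 4 of the 10 carriers were higher: the canalicular exporters Abcb4 and Abcc2, the basolateral pump Abcc3 and the uptake carrier Slco1a4, by 1.58-fold to 2.52-fold. Abcb11, Abcc4 and the other 4 uptake carriers did not pass the test in either direction. None of the 10 was called lower, also at an unadjusted p under 0.05 (0 genes) and by DESeq2 (0 genes). At the same threshold, 12.4% of all tested genes were called in either direction with 6.14% higher and 6.3% lower (quasi-likelihood test of edgeR, Benjamini-Hochberg adjusted p under 0.05). For the alternative counts given further on, the shares over all genes were 14.2% higher and 15.3% lower at an unadjusted p under 0.05, and 7.86% and 8.21% by DESeq2. The median log2 fold change was 0.34 over the 10 carriers and −0.02 over all tested genes.

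One library has to be named before the values. Control 2 scored 15.4 on the first principal component, where the other controls scored −49.1 to −42.1 and the sorbate libraries 21.9 to 37.8. It was the highest control in 7 of the 10 carriers, and its value is given for every carrier. Total counts ran from 15773932 to 25844731 per library. Whether every library came from its own animal is not stated in the labels, so the p-values reflect library-to-library spread, which may be technical. In whole liver fewer cells of a type and less RNA per cell cannot be told apart. Of 9 hepatocyte markers found (such as Alb, Apoa1 and Ttr), 0 were called by edgeR, 1 was higher at an unadjusted p under 0.05 and 1 by DESeq2. Their summed level was 81641 to 98253 CPM in controls (control 2 at 96906) and 93434 to 118268 CPM with sorbate (read counts relative to the TMM-scaled library size), and none was at 0.

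Promoter sequence from RefSeq (GRCm38.p6) was found for 9 of the 10 genes; Abcc3 had no entry. It is shown for a pair of uptake carriers from 1 gene cluster, of which Slco1a4 rose and Slco1a1 did not pass the test, and for the canalicular pair Abcb4, which rose, and Abcb11, which did not. The windows end at the base before the RefSeq start, or before the GENCODE vM21 start where that lies further upstream. The Abcb4 window is for this reason 246 bases long. All are written 5′ to 3′ on the gene's strand. Capitals mark AGGTCA, the half-site bound by many nuclear receptors, or its reverse complement TGACCT. The windows lie at chr6:141856221-141856470 (minus strand, Slco1a4), chr6:141946963-141947212 (minus strand, Slco1a1), chr5:8893471-8893716 (plus strand, Abcb4) and chr2:69342617-69342866 (minus strand, Abcb11).
Slco1a4: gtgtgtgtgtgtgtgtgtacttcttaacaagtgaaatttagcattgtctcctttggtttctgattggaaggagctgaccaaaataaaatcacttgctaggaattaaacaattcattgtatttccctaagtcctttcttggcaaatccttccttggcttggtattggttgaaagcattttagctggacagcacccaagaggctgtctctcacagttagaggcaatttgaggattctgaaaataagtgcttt
Slco1a1: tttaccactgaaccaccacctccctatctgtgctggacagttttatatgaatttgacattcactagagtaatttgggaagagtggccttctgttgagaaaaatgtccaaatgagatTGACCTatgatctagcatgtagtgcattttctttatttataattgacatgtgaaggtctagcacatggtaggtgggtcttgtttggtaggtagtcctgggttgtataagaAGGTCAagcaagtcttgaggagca
Abcb4: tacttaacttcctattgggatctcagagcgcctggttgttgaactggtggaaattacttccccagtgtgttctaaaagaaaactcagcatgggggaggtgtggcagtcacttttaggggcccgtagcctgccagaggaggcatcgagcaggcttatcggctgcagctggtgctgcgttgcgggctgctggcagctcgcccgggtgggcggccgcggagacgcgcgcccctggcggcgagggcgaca
Abcb11: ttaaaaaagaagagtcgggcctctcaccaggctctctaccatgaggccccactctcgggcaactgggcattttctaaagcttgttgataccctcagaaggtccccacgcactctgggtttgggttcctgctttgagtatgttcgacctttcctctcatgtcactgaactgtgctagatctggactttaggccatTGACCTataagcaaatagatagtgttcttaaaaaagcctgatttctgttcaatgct

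Among the windows shown above, which were picked as pairs, both with capitals belong to genes that did not pass the test. In Slco1a1 the matches lie at bases −134 to −129 and −24 to −19 from the start, and in Abcb11 at −56 to −51. Abcc2, which rose, also has a match. It is shown with 30 bases at chr19:43782247-43782276, and a match to TGACNNNGC, the core of the antioxidant response element bound by NRF2, is shown with 30 bases at chr19:43782200-43782229, both on the plus strand. Both lie upstream of the RefSeq start but inside the gene as GENCODE vM21 draws it. Capitals mark the matched letters.
Abcc2, AGGTCA: tgtcaggatgaaAGGTCAggagacttgcct
Abcc2, TGACNNNGC: ctcactgggaTGACATAGCattcatctagc

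Over 250 bases upstream of each start and on both strands, AGGTCA was found in 5 of the 13 windows of the 9 genes with a sequence. The share over 32851 mouse promoters was 14%. The 5 windows were those of Abcc2, which rose, and of Abcb11, Slco1a1, Slco1b2 and Slc10a1, which did not pass the test. TGACNNNGC was found in 3 of the 13 windows, those of Abcc2 and Abcc4 (10.2% of promoters). CACGTG, the E-box, was found in 1 of the 13, in Abcc4 (6.02%), and TTATGTAA, the D-box, in 0 of the 13 (0.819%). Some genes have several starts and so several windows, and the letters describe the windows only.

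Of the 3 canalicular exporters, Abcb4 and Abcc2 rose and Abcb11 did not pass the test. Abcb11 encodes the bile salt export pump, Abcb4 the floppase that moves phosphatidylcholine into bile, and Abcc2 (Mrp2) the exporter of glucuronide and glutathione conjugates. Abcb4 (ENSMUSG00000042476, chr5:8893717-8959231) measured 118, 183, 123 and 114 CPM in controls 1 to 4 and 189, 258, 187 and 217 CPM in sorbate 1 to 4. The groups did not overlap, although control 2 at 183 CPM came close to the lowest sorbate library at 187 CPM. The means were 135 ± 32.7 and 213 ± 33.2 CPM (SD, n = 4), and the log2 fold change was 0.66 (SE 0.17, 95% interval 0.28 to 1.04, adjusted p = 0.0330 by edgeR). About 2.87% of the 50-base stretches of its exons occur in other genes, Abcb1a and Abcb1b among them, so a small share of its reads could be split or discarded.

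Abcc2 (ENSMUSG00000025194, chr19:43782192-43840740) measured 273, 505, 321 and 248 CPM in the controls and 588, 569, 628 and 667 CPM with sorbate. Every sorbate library was above every control, and control 2 was again the nearest control. The means were 337 ± 116 and 613 ± 43.4 CPM (SD, n = 4), 1.82-fold higher with sorbate (log2 fold change 0.87, SE 0.21, 95% interval 0.41 to 1.32, adjusted p = 0.0241 by edgeR). Both calls depended on which libraries were used. Without any 1 of controls 1, 3 and 4 or sorbate 1 to 4, Abcb4 lost its call (log2 fold change 0.56 to 0.72, adjusted p 0.0566 to 0.104), and without control 2 it kept it (0.86, adjusted p = 6.50e-04). Abcc2 lost its call without controls 1, 3 or 4 or sorbate 1, 3 or 4 (0.74 to 0.89, adjusted p 0.0551 to 0.0775) and kept it without sorbate 2 (0.90, adjusted p = 0.0452) or control 2 (1.14, adjusted p = 8.61e-05).

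Abcb11 (ENSMUSG00000027048, chr2:69238282-69342616) measured 664, 853, 671 and 498 CPM in the controls and 566, 509, 552 and 508 CPM with sorbate. Control 2 was the highest of all 8 libraries and control 4 the lowest, so the sorbate range lay inside the control range. The means were 672 ± 145 and 534 ± 29.8 CPM (SD, n = 4), with a log2 fold change of −0.33 (SE 0.16, 95% interval −0.68 to 0.02, adjusted p = 0.195 by edgeR). The interval spans from a fall by 0.68 to almost no difference. Among the 3 canalicular exporters, Abcb11 was thus the 1 with a negative estimate, negative also in the 8 fits that left out a library (−0.45 to −0.19). Without control 2 the estimate shrank to −0.19 (adjusted p = 0.326), and with 1 surrogate variable as a covariate it was −0.52 (adjusted p = 0.0737).

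**Figure D1:**
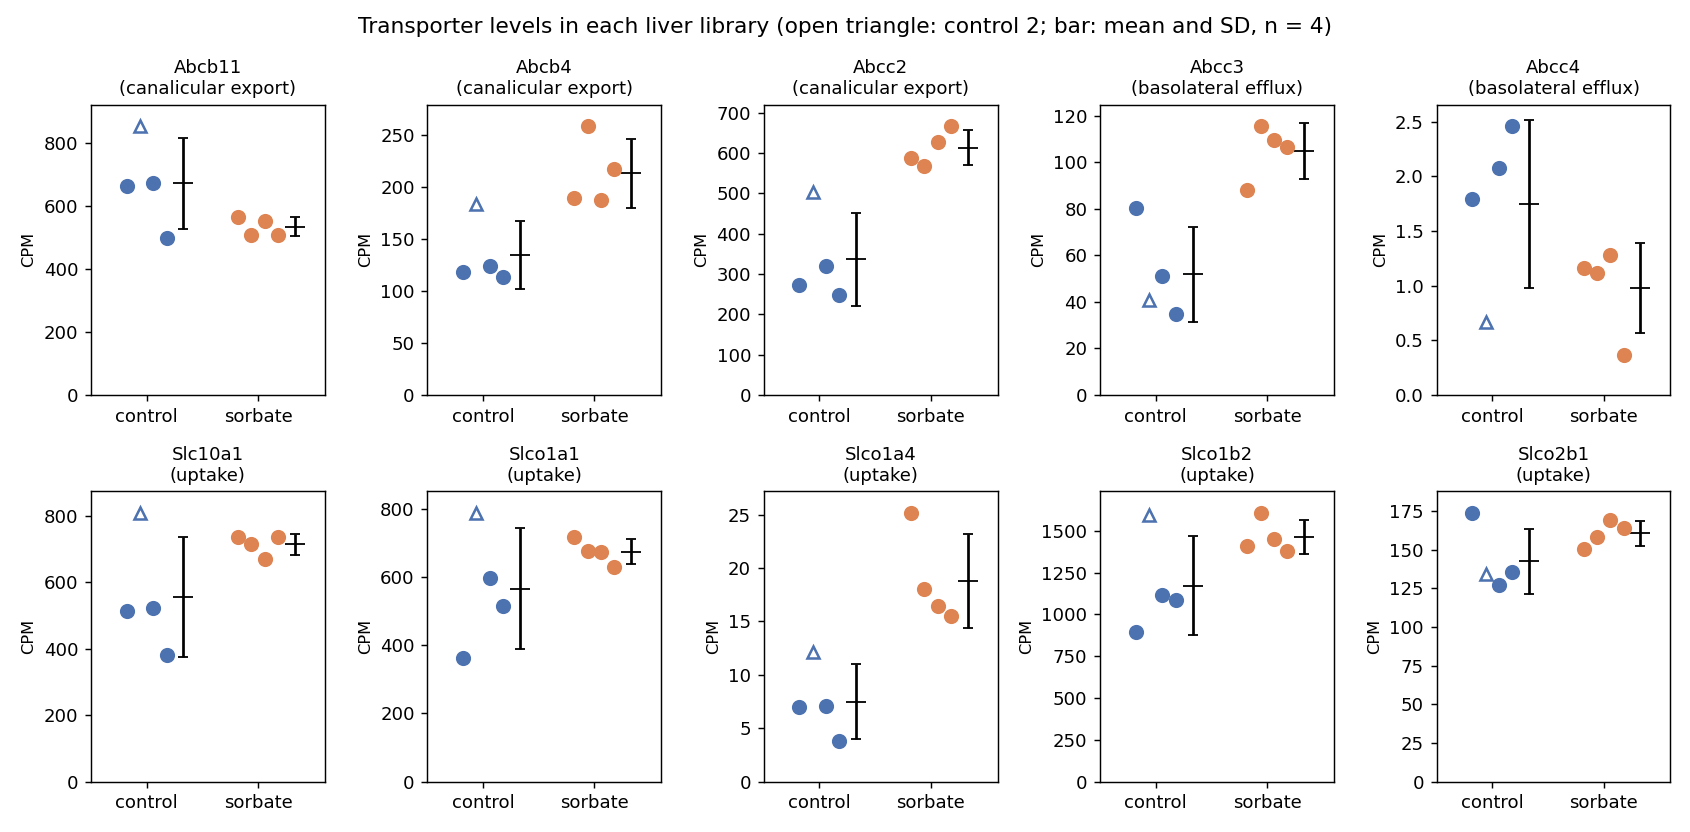
Level of each carrier gene in CPM (linear axes from 0) in the 4 control and 4 sorbate libraries, with the mean and SD beside the points and control 2 as an open triangle. The groups are apart in Abcb4, Abcc2, Abcc3 and Slco1a4, and control 2 is the highest control in 7 of the 10 panels.

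Of the 2 basolateral pumps, Abcc3 rose and Abcc4 did not pass the test. Abcc3 (Mrp3), which returns glucuronides and some bile acids to blood, is in mice a known target of CAR. Abcc3 (ENSMUSG00000020865, chr11:94343295-94392997) measured 80.6, 40.6, 51.1 and 34.9 CPM in the controls and 87.9, 116, 110 and 106 CPM with sorbate. Control 1 was the highest control, and control 2 was among the lower controls, unlike in the canalicular genes. The means were 51.8 ± 20.3 and 105 ± 11.9 CPM (SD, n = 4), 2.02-fold higher (log2 fold change 1.02, SE 0.23, 95% interval 0.51 to 1.52, adjusted p = 0.0189 by edgeR). The call was kept in 5 of the 8 fits that left out a library, and adjusted p was 0.0610 without control 3, 0.0527 without sorbate 3 and 0.0535 without sorbate 4, with log2 fold changes of 1.00 to 1.01. No 50-base stretch of its exons occurs in another gene.

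Abcc4 (Mrp4), a pump for bile acids with glutathione and for sulfated steroids, was barely detected. It had 36, 12, 43 and 50 reads in the controls and 31, 25, 28 and 6 reads in the sorbate libraries. In Abcc4 (ENSMUSG00000032849, chr14:118482692-118706219) this was 1.79, 0.670, 2.08 and 2.46 CPM against 1.16, 1.11, 1.28 and 0.365 CPM. Control 2 lay within the sorbate range, and the other 3 controls lay above every sorbate library. The log2 fold change was −0.82 (SE 0.43, 95% interval −1.78 to 0.14, adjusted p = 0.237 by edgeR). The log2 ratio of Abcc4 to Abcb11 counts within a library, −8.71 ± 1.13 in controls and −9.24 ± 0.80 with sorbate (SD, n = 4), did not pass an exact two-sided permutation test (p = 0.4, adjusted p = 0.6 over 3 ratios). The difference of −0.53 was −1.06 without control 2 (exact permutation p = 0.0571), −0.18 without control 4 and −0.13 without sorbate 4.

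Abcc3 and Abcc2, the basolateral and the canalicular pump for glucuronides, were also compared within each library. The log2 ratio of Abcc3 to Abcc2 counts was −1.76, −3.64, −2.65 and −2.83 in the controls and −2.74, −2.30, −2.52 and −2.65 with sorbate. The sorbate values lay inside the control range, which control 2 and control 1 spanned. The difference of 0.17 did not pass an exact two-sided permutation test (p = 0.629, adjusted p = 0.629), and without control 2 it was −0.14. Both pumps were thus higher with sorbate, and no shift from one to the other was detectable with these 8 libraries.

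The uptake carriers were largely not called. Slc10a1 (Ntcp) is the sodium-dependent bile acid carrier, Slco1a1, Slco1a4 and Slco1b2 are sodium-independent organic anion transporting polypeptides, and Slco2b1 carries sulfated steroids. Slco1a4 (ENSMUSG00000030237, chr6:141805440-141856199), which also carries digoxin, was the exception. It measured 6.97, 12.2, 7.06 and 3.79 CPM in the controls and 25.2, 18.05, 16.4 and 15.5 CPM with sorbate. All sorbate libraries were above all controls, with control 2 the highest control and sorbate 1 the highest of all. The means were 7.499 ± 3.47 and 18.8 ± 4.37 CPM (SD, n = 4), 2.52-fold higher (log2 fold change 1.33, SE 0.29, 95% interval 0.68 to 1.98, adjusted p = 0.0175 by edgeR). The call was kept in 6 of the 8 fits that left out a library, with adjusted p = 0.0589 without control 3 (log2 fold change 1.31) and 0.0526 without sorbate 1 (1.16).

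Slco1a1 (ENSMUSG00000041698, chr6:141907282-141946962) lies near Slco1a4 on the same strand, and Slco1b2 (ENSMUSG00000030236, chr6:141629518-141686646) lies on the other side of Slco1a4, on the plus strand. Slco1a1 measured 362, 787, 598 and 515 CPM in the controls and 718, 676, 672 and 629 CPM with sorbate, a log2 fold change of 0.25 (SE 0.20, 95% interval −0.20 to 0.70, adjusted p = 0.438 by edgeR). Slco1b2 measured 895, 1595, 1114 and 1089 CPM in the controls and 1409, 1608, 1450.1 and 1378 CPM with sorbate (log2 fold change 0.32, SE 0.18, 95% interval −0.08 to 0.71, adjusted p = 0.265). In both genes control 2 lay within or above the sorbate range, and the other 3 controls were below all of them. The log2 ratio of Slco1a4 to Slco1a1 counts in a library was −6.30 ± 0.60 in controls and −5.19 ± 0.24 with sorbate (SD, n = 4), and the groups did not overlap. The difference of 1.11 gave an exact two-sided permutation p = 0.0286, the smallest that 70 arrangements allow, and an adjusted p = 0.0857 over the 3 ratios. With the other 2 ratios at p = 0.4 and 0.629 no lower adjusted p could be reached in this exact test, so it could not have passed the correction. About 1.61% of the 50-base stretches of Slco1a4 and 1.64% of those of Slco1a1 are shared within this gene cluster, so their separate counts carry that uncertainty.

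Slc10a1 (ENSMUSG00000021135, chr12:80953183-80968705) measured 513, 809, 523 and 381 CPM in the controls and 736, 716, 669 and 737 CPM with sorbate. Control 2 was the highest of the 8 libraries, and the other controls were below every sorbate library. The log2 fold change was 0.36 (SE 0.20, 95% interval −0.08 to 0.80, adjusted p = 0.260 by edgeR). Slco2b1 (ENSMUSG00000030737, chr7:99657804-99711340) measured 174, 134, 127 and 135 CPM against 150.4, 158, 169 and 164 CPM, and there control 1 was the highest library. Its log2 fold change was 0.17 (SE 0.12, 95% interval −0.09 to 0.44, adjusted p = 0.367 by edgeR). Genes on the opposite strand overlap 9.21% of the exon bases of Slco2b1 and 3.01% of those of Abcb11, and it is not known from the labels whether counting used strand.

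In 4 of the 10 carriers the groups were fully separate, against 17.7% of all tested genes. With control 2 left out they were separate in 8 of the 10, all but Abcb11 and Slco2b1, against 37.7% of genes. In that fit, 7 carriers were higher and 1 was lower, where 15.1% of genes were called higher and 14.1% lower. Slc10a1 (log2 fold change 0.61, adjusted p = 0.00644), Slco1b2 (0.51, adjusted p = 0.0125) and Slco1a1 (0.47, adjusted p = 0.0479) joined Abcb4, Abcc2, Abcc3 and Slco1a4, and Abcc4 was lower (−1.06, adjusted p = 0.0418; all by edgeR). With 1 surrogate variable as a covariate, which correlated with the group at 0.588 and was 0.471 in control 2, only Abcc3 was called, where 2.35% of genes were higher and 2.2% lower (log2 fold change 1.29, adjusted p = 0.0161). Under it Abcb4 was 0.45, Abcc2 0.53, Slco1a4 0.99 and Slco1a1 −0.04. Among the related genes described further on, Klb, Cyp7a1, Cyp3a11, Gsta2, Cldn2 and Pdzk1ip1 lost their calls with this covariate (adjusted p 0.0812 to 0.120). The log2 fold changes were then 0.47 for Klb, 2.37 for Cyp7a1, 1.31 for Cyp3a11, 1.26 for Gsta2, −0.48 for Cldn2 and −1.46 for Pdzk1ip1.

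**Figure D2:**
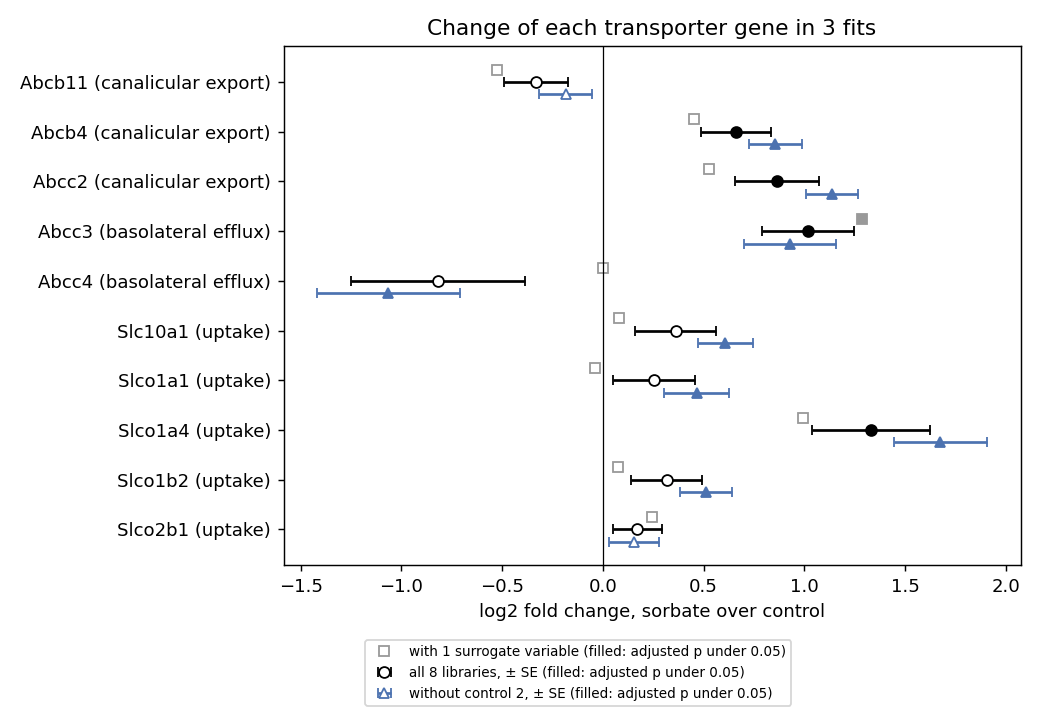
Log2 fold change of each carrier gene, sorbate over control, with all 8 libraries (circles, ± SE), without control 2 (triangles, ± SE) and with 1 surrogate variable (squares, no error drawn); filled symbols have adjusted p under 0.05. Abcc3 is filled in all 3 fits, while Slc10a1, Slco1a1, Slco1b2 and Abcc4 are filled only without control 2.

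Levels of different genes were compared as CPM per kb of merged exons. In controls the order of means was Slc10a1 (253 ± 82.1), Slco1b2 (238 ± 60.4), Abcb11 (131 ± 28.2), Slco1a1 (107 ± 33.6), Abcc2 (39.4 ± 13.6), Slco2b1 (23.9 ± 3.54), Abcb4 (14.4 ± 3.48), Abcc3 (9.09 ± 3.56), Slco1a4 (1.17 ± 0.541) and Abcc4 (0.274 ± 0.121; CPM per kb, SD, n = 4). The library ranges of neighbours in that order overlapped for Slc10a1 and Slco1b2, Abcb11 and Slco1a1, Abcc2 and Slco2b1, and Abcb4 and Abcc3. With sorbate, Slco1a1 (128 ± 6.92) stood above Abcb11 (104 ± 5.80) in 4 of 4 libraries, and in controls Abcb11 was above Slco1a1 in 3 of 4. The rise of Slco1a4 took it from 1.17 to 2.93 ± 0.682 CPM per kb, still far below Slco1b2 at 296 ± 20.7.

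Summed over each role, uptake carriers stood at 623 ± 166 CPM per kb in controls and 779 ± 23.7 with sorbate, and canalicular exporters at 184 ± 44.4 and 198 ± 3.51 (SD, n = 4). The basolateral pumps summed to 9.36 ± 3.57 and 18.6 ± 2.09 CPM per kb, nearly all of it Abcc3. For uptake and canalicular export the SD among controls was several times that among sorbate libraries, and the control range included control 2 at 865 and 244.5 CPM per kb.

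**Figure D3:**
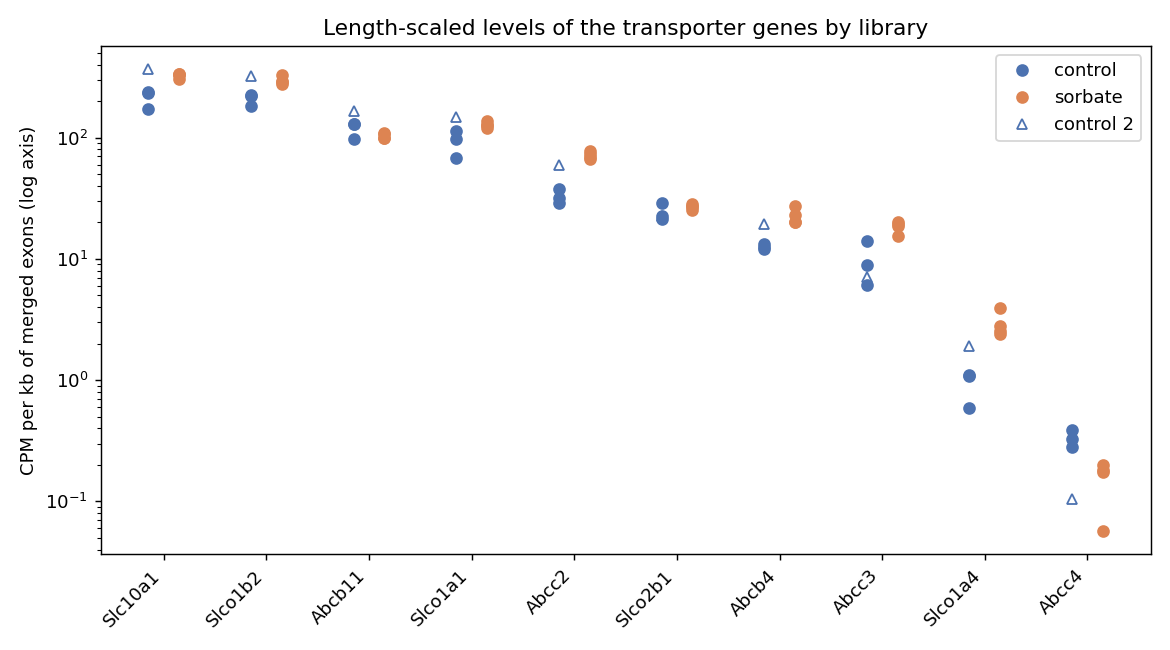
CPM per kb of merged exons (log axis) of each carrier gene in each library, control 2 as an open triangle, in the order of the control means. Slc10a1 and Slco1b2 are the most abundant, Slco1a4 lies between 0.591 and 3.92, and Abcc4 lies at or below 0.385.

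The receptors and factors known to control these carriers were measured in the same libraries. Of 14 listed genes 12 were tested; Vdr had 2 control and 6 sorbate reads and Gpbar1 0 and 3. With sorbate 4 were higher and 0 lower (6.14% and 6.3% of all genes). The median log2 fold change was 0.20 (6 and 1 at an unadjusted p under 0.05, 6 and 0 by DESeq2, 4 and 1 without control 2). Nr1i3, which encodes CAR, the xenobiotic receptor whose activators are known to raise Abcc2 and Abcc3 in mouse liver, measured 48.6, 77.6, 53.6 and 59.8 CPM in the controls and 274, 213, 181 and 264 CPM with sorbate. The groups were far apart, with control 2 again the highest control. Nr1i3 was 3.89-fold higher (59.9 ± 12.7 to 233 ± 43.9 CPM, SD, n = 4; log2 fold change 1.96, SE 0.18, adjusted p = 3.50e-04 by edgeR), and it was called in all 8 fits that left out a library.

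Nfe2l2, which encodes NRF2, was 30.7 ± 2.22 CPM in controls and 51.9 ± 7.03 CPM with sorbate (SD, n = 4; log2 fold change 0.76, SE 0.12, adjusted p = 0.00408 by edgeR). For Ppara, the fatty acid sensing receptor known to raise Abcb4, the estimate was 0.95 (SE 0.16, adjusted p = 0.00569). Klb, a co-receptor for the gut hormone that represses bile acid synthesis, stood at 0.77 (SE 0.19, adjusted p = 0.0290), and its call held only without control 2 among the 8 fits that left out a library (adjusted p 0.0544 to 0.0859 in the others, log2 fold change 0.64 to 0.81). Nr1h4 (FXR), the main bile acid sensor, did not pass at 0.35 (SE 0.12, adjusted p = 0.0761), and its target Nr0b2 (SHP) was −0.22 (SE 0.23, adjusted p = 0.563). Nr1i2 (PXR) was 0.38 (SE 0.13, adjusted p = 0.0718) with groups that did not overlap, and Hnf4a was −0.24 (SE 0.20, adjusted p = 0.474; all log2 fold changes by edgeR). Nr1h4 was called higher by DESeq2 (adjusted p = 0.0329), with scaling by total count (0.0245) and with quality weights (0.0343), and Nr1i2 by DESeq2 (0.0375) and with scaling by total count (0.0283).

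Genes known as targets of CAR and PXR were also listed. Of 14, 13 were tested, and 4 were higher and 0 lower (6.14% and 6.3% of all genes). Estimates were positive in 9 and negative in 4, with a median log2 fold change of 0.68 (6 higher and 0 lower at an unadjusted p under 0.05, 5 and 0 by DESeq2, 5 and 1 without control 2). The higher genes were Por, the electron donor of microsomal P450 enzymes (1.58, SE 0.22, adjusted p = 0.00245), and Ugt1a1, which conjugates bilirubin (0.89, SE 0.15, adjusted p = 0.00654). The others were the P450 genes Cyp3a25 (1.22, SE 0.20, adjusted p = 0.00569) and Cyp3a11 (1.599, SE 0.39, adjusted p = 0.0251, all by edgeR). The call of Cyp3a11 was lost without controls 1 or 3 or sorbate 2, 3 or 4 (range of adjusted p 0.0502 to 0.0801, log2 fold change 1.38 to 1.68). Cyp2b10, the most used CAR marker, was near the floor at 0.816 ± 0.425 and 1.72 ± 1.31 CPM (1.04 on the log2 scale, SE 0.54, adjusted p = 0.230). It is named by choice after its values were seen.

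Of 13 organic anion conjugating enzymes, which make the substrates of Abcc2 and Abcc3, 2 were higher and 0 lower, Ugt1a1 and Ugt1a6a (log2 fold change 1.51, SE 0.24, adjusted p = 0.00483), and the median was 0.61. Over all genes 6.14% were higher and 6.3% lower. At an unadjusted p under 0.05, 11 of the 13 enzymes were higher and 0 lower, and by DESeq2 8 and 0. All 13 had a positive log2 fold change, where 6367 of all 13312 tested genes did. With control 2 left out the test called 12 of the 13 higher and 0 lower (15.1% and 14.1% of all genes). Once the surrogate variable was added 3 of the 13 were higher and 0 lower (2.35% and 2.2% of all genes). Exons of the Ugt1a genes are shared at their 3′ ends, so single-gene values of Ugt1a1 and Ugt1a6a are uncertain. Of 13 NRF2 targets, 10 were tested and 1 was higher, the glutathione transferase gene Gsta2 (1.36, SE 0.30, adjusted p = 0.0186), with a median of −0.03. None was called lower (2 at an unadjusted p under 0.05, 1 by DESeq2), and without control 2 there were 2 higher and 3 lower. Gsta2 lost its call without control 3 or sorbate 3 or 4 (range of adjusted p 0.0538 to 0.0592, log2 fold change 1.13 to 1.35).

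Of 31 other hepatobiliary carriers 28 were tested, 5 were higher and 4 lower (6.14% and 6.3% of all genes), with a median log2 fold change of 0.03 (7 and 5 without control 2). Abcg5 and Abcg8, the partners that form the canalicular cholesterol exporter, were 51.6 ± 17.9 and 50.8 ± 21.2 CPM in controls and 142 ± 8.35 and 151 ± 18.1 CPM with sorbate (SD, n = 4). On the log2 scale the changes were 1.46 (SE 0.20, adjusted p = 0.00236) and 1.57 (SE 0.24, adjusted p = 0.00368), and both were called in all 8 fits that left out a library. Control 2 was the highest control in both genes, at 78.0 and 81.9 CPM. Atp8b1, a phospholipid flippase of the canalicular membrane, fell from 55.4 ± 1.98 to 37.7 ± 4.996 CPM (SD, n = 4; −0.56, SE 0.11, adjusted p = 0.0117). The other 3 higher genes were Abcc6, Slc22a23 and Slc47a1, and the other 3 lower were Slc51b, Slc10a2 and Slc10a7 (all but Slc10a2 named after their values were seen).

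Slc10a2, the apical sodium-dependent bile acid carrier that in liver is known from bile duct cells, measured 109, 19.999, 124 and 97.8 CPM in the controls and 10.4, 24.3, 16.3 and 12.4 CPM with sorbate. Control 2 lay inside the sorbate range and the other controls were far above it. The log2 fold change was −2.47 (SE 0.48, adjusted p = 0.0103 by edgeR), and −1.11 with the surrogate variable. The summed level of 8 cholangiocyte markers moved with it, at 131 to 261 CPM in controls 1, 3 and 4, 63.0 CPM in control 2 and 40.3 to 53.1 CPM with sorbate. Most of that sum was Spp1, at a mean of 138 CPM in controls and 30.7 CPM with sorbate. Spp1 and Sox9 were lower (log2 fold changes −2.16 and −1.597), while the other 3 of 5 tested markers had positive estimates and were not called, Krt19 among them (1.03, adjusted p = 0.113). The median of the 5 was 0.06 (single markers named after their values were seen). At an unadjusted p under 0.05, 1 marker was higher and 2 lower, and by DESeq2 0 and 2. Without control 2, 0 of 6 were higher and 2 lower, and once the surrogate variable was added 0 were higher and 1 lower. Krt7, Cftr and Tff2 had too few reads to be tested, and none was at 0 in all 8 libraries. The part of these cells in the result was not tested.

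**Figure D4:**
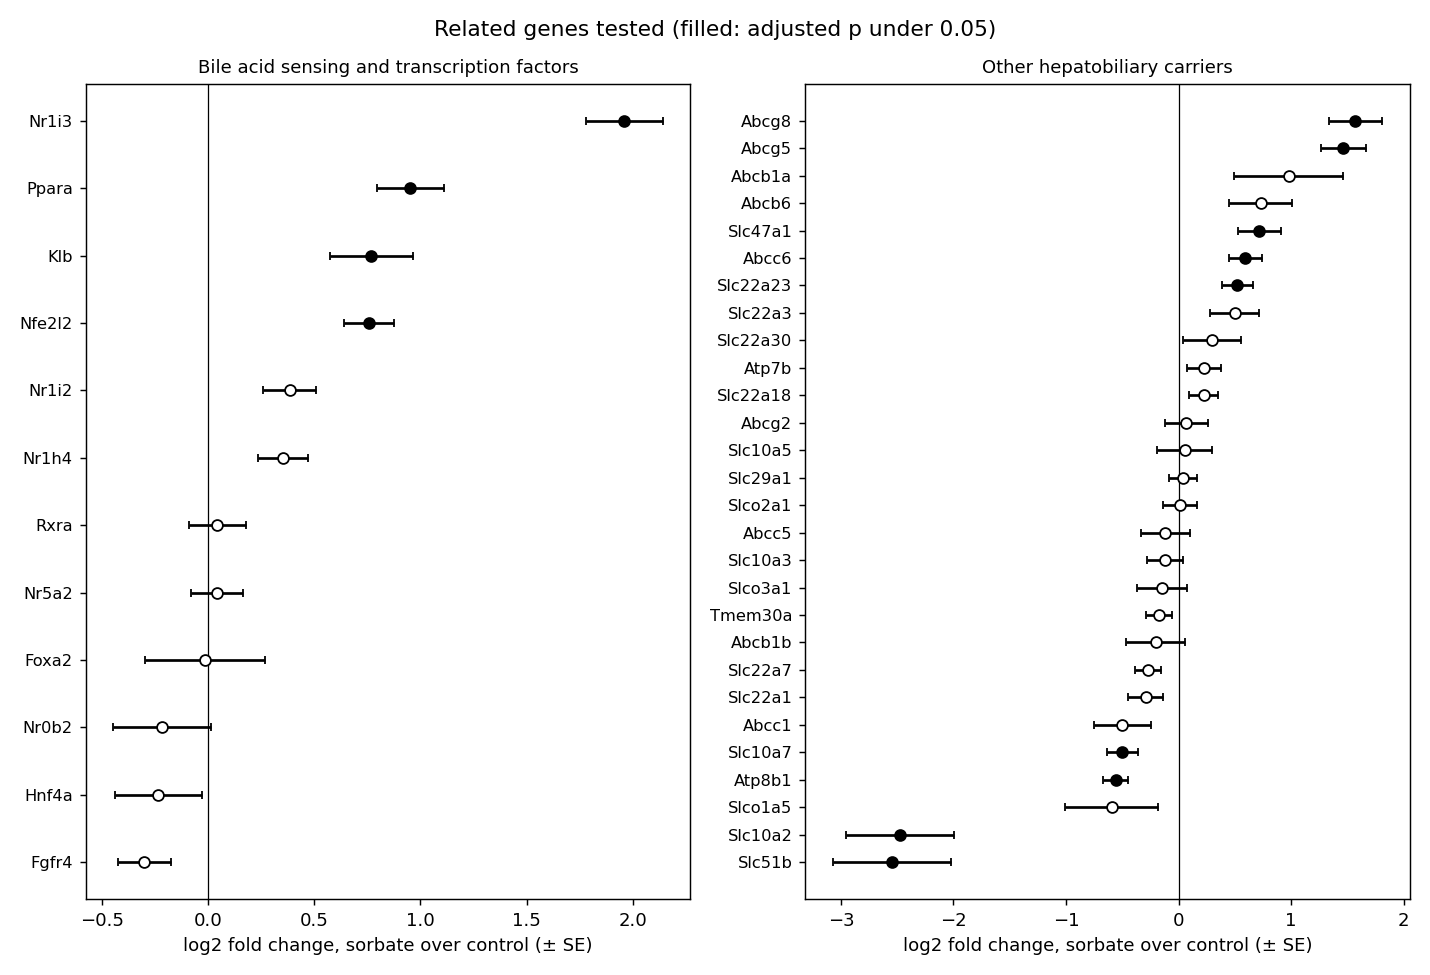
Log2 fold change (± SE), sorbate over control, of 12 tested receptors and factors and 28 tested other carriers; filled symbols have adjusted p under 0.05. Nr1i3 is the highest of the first list, and Abcg5 and Abcg8 stand at the top and Slc10a2 and Slc51b at the bottom of the second.

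Of 18 scaffold and traffic genes of the canalicular membrane, which place these pumps, 0 were higher and 2 lower. The shares over all genes were 6.14% and 6.3%. The median log2 fold change was −0.14 (2 and 6 at an unadjusted p under 0.05, 1 and 3 by DESeq2, 2 and 4 without control 2). The 2 lower genes were Cldn2, a tight junction channel (−0.72, SE 0.15, adjusted p = 0.0154), and Pdzk1ip1, a small partner of a scaffold protein (−1.56, SE 0.41, adjusted p = 0.0320, both by edgeR). Cldn2 lost its call without control 3 or sorbate 3 (adjusted p 0.0537 to 0.0543, −0.68 and −0.65). Pdzk1ip1 lost it without controls 1 or 3 or sorbate 1, 3 or 4 (adjusted p 0.0710 to 0.0993, −1.63 to −1.37). Of 16 genes of bile acid synthesis and conjugation, 2 were higher and 0 lower, beside the same shares over all genes. Their median was 0.24 (7 and 1 at an unadjusted p under 0.05, 5 and 1 by DESeq2, 7 and 1 without control 2). Cyp7a1, the rate-limiting enzyme of synthesis from cholesterol, measured 8.36, 12.2, 17.5 and 3.20 CPM in the controls and 93.7, 18.98, 86.3 and 70.0 CPM with sorbate. The groups did not overlap, but sorbate 2 lay close to the highest control (log2 fold change 2.71, SE 0.53, adjusted p = 0.0111 by edgeR). Slc27a2, an acyl-CoA synthetase, was the second (1.07, SE 0.19, adjusted p = 0.00695).

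Markers of other cells moved in part with the groups. The share of all genes called lower was 6.3%. Of 8 Kupffer cell markers 4 were lower, 7 at an unadjusted p under 0.05, by DESeq2 or without control 2, and 0 once the surrogate variable was added. Their sum was 362 to 471 CPM in controls 1, 3 and 4, 195.5 CPM in control 2 and 141 to 273 CPM with sorbate. Of 8 sinusoidal endothelium markers 1 was lower (249 to 289, 137 and 152 to 182 CPM), with 4 lower at an unadjusted p under 0.05, 1 by DESeq2, 7 when control 2 was left out and 0 once the surrogate variable was added. Of 5 tested red cell genes 4 were lower (529 to 1376, 331 and 251 to 373 CPM). The other 1 had a positive estimate that edgeR did not call, and it was higher at an unadjusted p under 0.05 and by DESeq2. Both tested neutrophil genes were lower (12.9 to 24.6, 2.01 and 1.10 to 2.71 CPM). Without control 2, 5 of 6 red cell genes were lower and 1 higher, and 3 of 3 neutrophil genes were lower. Once the surrogate variable was added 0 of either were called. Of 8 stellate cell markers 0 were called by edgeR, by DESeq2 or at an unadjusted p under 0.05 (215 to 255.0 CPM in controls 1, 3 and 4, 160.5 in control 2 and 181 to 291 with sorbate). Among hepatocyte zone markers, 3 of 10 pericentral genes were higher and 0 lower. Their estimates were positive in 6 and negative in 4, with a median log2 fold change of 0.29. Their sums, which weigh abundant genes most, were 5494 to 6531 CPM in controls and 9055 to 10559 CPM with sorbate. With control 2 left out 4 of the 10 were higher and 1 lower, and once the surrogate variable was added 2 were higher and 0 lower. Of 9 periportal genes 1 was higher and 0 lower, with 7 positive and 2 negative estimates. Their sums were 5333 to 6248 CPM in controls 1, 3 and 4, 6835 CPM in control 2 and 7974 to 8574 CPM with sorbate. Without control 2, 4 of the 9 were higher, and once the surrogate variable was added 0 were higher and 1 was lower. No marker was at 0 in all 8 libraries, but the neutrophil genes Ly6g, Camp and Ngp had 0 reads in the sorbate group. The part of these cells in the carrier results was not tested.

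For each carrier that rose, the 3 genes nearest to it in profile over the 8 libraries were found by the root mean square difference of centred log2 CPM. For Abcb4 they were Optn (0.0845), Tlcd4 (0.0868) and Trit1 (0.0923), where the median over all genes was 0.491. For Abcc2 they were Smarca2 (0.0630), Acot12 (0.0699) and Dsg1c (0.0726), with a median of 0.600. For Abcc3 they were Serpina6 (0.171), Tmtc2 (0.213) and Syt7 (0.217), with a median of 0.699, and for Slco1a4 Gm32391 (0.228), Ugt1a6a (0.230) and Enpp2 (0.263), with a median of 0.878. The nearest profiles of Abcb4 and Abcc2 were closer to them than those of Abcc3 and Slco1a4. Abcc3 and Slco1a4 also have lower counts, and the part of depth in these distances was not tested.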

How the data were processed

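Poly(A) RNA of snap-frozen liver was sequenced as single-read TruSeq libraries, per the labels' protocols. The deposited table holds raw counts per Ensembl gene. HISAT2 2.1.0, Subread, edgeR and build GRCm38 are named per the submitters' processing notes. For settings, annotation release and strand use, the sources used here give nothing. Groups came from the treatment in the labels, columns were matched by name, and 4 other columns, which match no sample, were left out. Replicate numbers follow accession order and pair nothing. Pairs of replicates differed beyond sampling noise, with a chi-square of 25.5 to 244 per gene.

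Genes were filtered with filterByExpr (count minimum 10) and scaled by TMM. They were tested two-sided with edgeR 4.0.16 (glmQLFit and glmQLFTest, R 4.3.3), with Benjamini-Hochberg adjustment over 13312 genes at 0.05. Intervals of log2 fold changes are at 95%. The 3 log2 count ratios were tested by exact permutation over 70 arrangements. Alternatives used DESeq2 1.42.0, limma 3.58.1 (voom with quality weights), sva 3.50.0 (1 surrogate variable), other scalings, no filter, and leaving out each library. On simulated data for this comparison (13109 genes, 200 changed), 10.4% of 1.5-fold, 67.2% of 2-fold and 97% of 4-fold changes were called, and 4.92% of 122 calls were false. The simulation drew each gene independently and set no library apart, as control 2 is in the data. These shares may therefore not hold for the measured libraries.

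Coordinates and exon lengths came from GENCODE vM21 (55141 of 55487 genes found), and promoters from RefSeq. Profiles used log2 CPM with a prior count of 2. The carriers and gene lists were chosen with earlier results of these data known. Named genes were all 10 carriers, 6 fixed regulators and Cyp7a1, up to 4 called genes with the lowest p per list, and the 3 nearest profiles of each called carrier. One gene of the list of receptors and factors, and 1 promoter motif, are not reported here.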

Additional observations from a re-analysis of the deposited data

Results flagged for a closer look

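Among 40 groups of 4 libraries checked, 2 held a library far from the other 3 by Dixon's ratio, where chance gives about 1 in 20 groups. Abcb4 measured 183 CPM in control 2, with the other controls at 114 to 123 CPM. The log2 ratio of Abcc4 to Abcb11 counts was −10.4 in sorbate 4, with the others at −8.93 to −8.75, and Abcc4 rests there on 6 reads.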

How the results depend on the processing

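With 4 libraries per group, the calls depended on which library was left out. Leaving out 1 gave 332 to 2053 higher and 357 to 1915 lower genes, and 0 to 7 higher and 0 to 1 lower carriers. The highest counts came without control 2 and the lowest carrier count without control 3. Scaling by total count called 1300 genes higher and 550 lower. Higher genes then made up 70.3% of calls, against 49.4% with TMM, and the median of all genes was 0.11, against −0.02. Quality weights gave 1968 and 1944 genes, and 1 surrogate variable gave 313 and 293 genes with 1 higher carrier. The cause of these differences in counts was not tested. DESeq2, scaling by total count, upper quartile factors and no filter each called 4 carriers higher and 0 lower, and quality weights 6 and 0. With the surrogate variable the log2 fold changes of Slco1a1 (−0.039) and Hnf4a (0.119) changed sign. The log2 ratio of Abcc3 to Abcc2 differed by −0.139 to 0.486 without 1 library, negative without control 2. That of Slco1a4 to Slco1a1 differed by 0.850 to 1.31 without 1 library and by 0.926 between medians (exact permutation p = 0.0571). That of Abcc4 to Abcb11 differed by −1.06 to −0.130 without 1 library. Abcc4 is limited by its depth of 6 to 50 reads per library. No paired analysis was possible because nothing in the labels ties a control library to a sorbate library: their numbers only name libraries.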
